A study of Glycine max with 6 samples.

Results

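Cyclins, cyclin-dependent kinases (CDKs) and mitotic regulators were examined in RNA-seq of soybean (Glycine max) trifoliolate leaves. A gene was taken as a member when its deposited protein description named an A, B, C, D or U cyclin, a G2/mitotic-specific cyclin, a cyclin-dependent kinase, cell division control protein 2, an anaphase-promoting complex subunit, cell division cycle 20, an aurora kinase, a mitotic spindle protein, an E2F factor, a retinoblastoma protein or Wee1. This found 155 of the 36827 genes listed. The plants were 30 days old, and no treatment is given. The 3 libraries of 1 group are labelled DN50, with the genotype wild type. The 3 libraries of the other group are labelled GmRAV1-ox, with the genotype GmRAV1. The labels give neither the promoter nor the number of transformed lines, and they do not say whether replicates were separate plants, so the tests speak only of the spread among these libraries, which may be technical.

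Progress through the plant cell cycle depends on CDKs that are active only when bound to a cyclin. D cyclins with CDKA phosphorylate the retinoblastoma-related protein and release E2F factors, which turn on genes for DNA replication, while A and B cyclins with CDKA and the plant-specific CDKB act later, up to and through mitosis. The anaphase-promoting complex with its activator CDC20 then marks mitotic cyclins for destruction, and inhibitors of the KRP and SIAMESE families hold CDKs back. In leaves these genes are known chiefly from the young, dividing blade and from the dividing cells of the stomatal lineage, whereas expanded mesophyll cells have left the mitotic cycle.

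The 6 libraries held between 7208496 and 7684540 counts. In a principal component analysis of all tested genes, component 1 carried 62.6% of the variance. On it GmRAV1-ox replicates 1 and 2 lay at 71.6 and 100.1, and GmRAV1-ox replicate 3 lay at -16.5, among the DN50 libraries (-64.0, -10.3 and -81.0). Calls that change when GmRAV1-ox replicate 3 is left out are therefore given with and without it. That library was picked out by its values in these same data, and leaving it out favours a difference between the groups. Calls without it are thus a description and not independent support. The files do not say which gene is GmRAV1, and of the 4 genes described as RAV-like or TEM1-like none was higher in all 3 libraries labelled GmRAV1-ox than in DN50. The 3 tested ones had log2 fold changes of -0.26, -0.05 and -0.04 (edgeR adjusted p = 0.673, 0.928 and 0.961). The fourth, Glyma20g32730.1, was below the count filter and read 0.154, 0.569 and 0.396 CPM in DN50 and 1.54, 2.75 and 0.289 CPM in GmRAV1-ox, that is high in replicates 1 and 2 and within the DN50 range in replicate 3. Without GmRAV1-ox replicate 3 it passed the filter through GmRAV1-ox replicates 1 and 2 alone, so that its call as higher by edgeR (log2 fold change 2.44, adjusted p = 0.0273) already required a difference. The mesophyll markers (genes for the small subunit of ribulose bisphosphate carboxylase and chlorophyll a-b binding proteins) summed to between 51755 and 102183 CPM in every library, so markers of the labelled tissue were abundant throughout.

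Most mitotic members, namely the B cyclins, the CDKB kinases, 2 of 4 CDC20 genes and the spindle checkpoint genes, were at or below 1.85 CPM (counts scaled to the library total with its TMM factor) in all 3 DN50 libraries and higher than every DN50 library in replicates 1 and 2 of GmRAV1-ox. In its replicate 3 they lay within the DN50 range or above it by less than in the other replicates. Among tested G1 regulators, 3 D3 cyclins, 2 E2FA-like genes, a KRP-type inhibitor and a CDKA gene were higher in each GmRAV1-ox library than in each DN50 library. A D4-1-like cyclin was lower in each. Over all 100 tested members, 15 lay above without overlap and 6 below, beside 12.9% and 13.1% of all tested genes. The retinoblastoma-related genes and the CDK regulatory subunits overlapped between the groups, as did most subunits of the anaphase-promoting complex and most CDKs of classes C to G. With all 6 libraries, edgeR called none of these differences at an adjusted p under 0.05. DESeq2 called 3 B cyclins, the 3 D3 cyclins and the D4-1-like cyclin, where it called 2.53% of all tested genes higher and 3.97% lower. With the replicate number as a block, edgeR called 6 members higher and 1 lower, beside 682 higher and 939 lower of all 26272 tested genes. The labels do not say that replicate numbers mark anything shared between the groups.

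Of the 155 members, 100 had enough counts to be tested, and 55 did not, of which 20 held fewer than 10 counts over the 6 libraries. None of the 100 was called by edgeR at an adjusted p under 0.05, beside a background of 0.122% of the 26272 tested genes called higher and 0.579% called lower. The smallest adjusted p of a member by edgeR was 0.0981, for the B cyclin Glyma11g08960.1. At an unadjusted p under 0.05, 17 members were higher and 3 lower by edgeR, where 10.6% of all tested genes were higher and 10.7% lower. DESeq2 called 6 members higher, namely 3 B cyclins and 3 D3 cyclins, and 1 lower, a D4-1-like cyclin (background 2.53% and 3.97%), and limma on log2(FPKM + 0.5) called 0 in either direction (background 0.213% and 0.43%). Of the 6, the B cyclins Glyma19g30720.1 and Glyma11g08960.1 reached the cutoff of the count filter in GmRAV1-ox libraries only, so their being tested already required a difference. Both are also counted among the 17 just given and among the 15 without overlap given next. The values of the groups did not overlap for 15 of the 100 with GmRAV1-ox above and for 6 with GmRAV1-ox below, against a background of 12.9% and 13.1% of tested genes. The share above was thus near the background, and the share below was under it. The median log2 fold change of the tested members was 0.06, beside 0.01 for all tested genes.

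**Figure D1:**
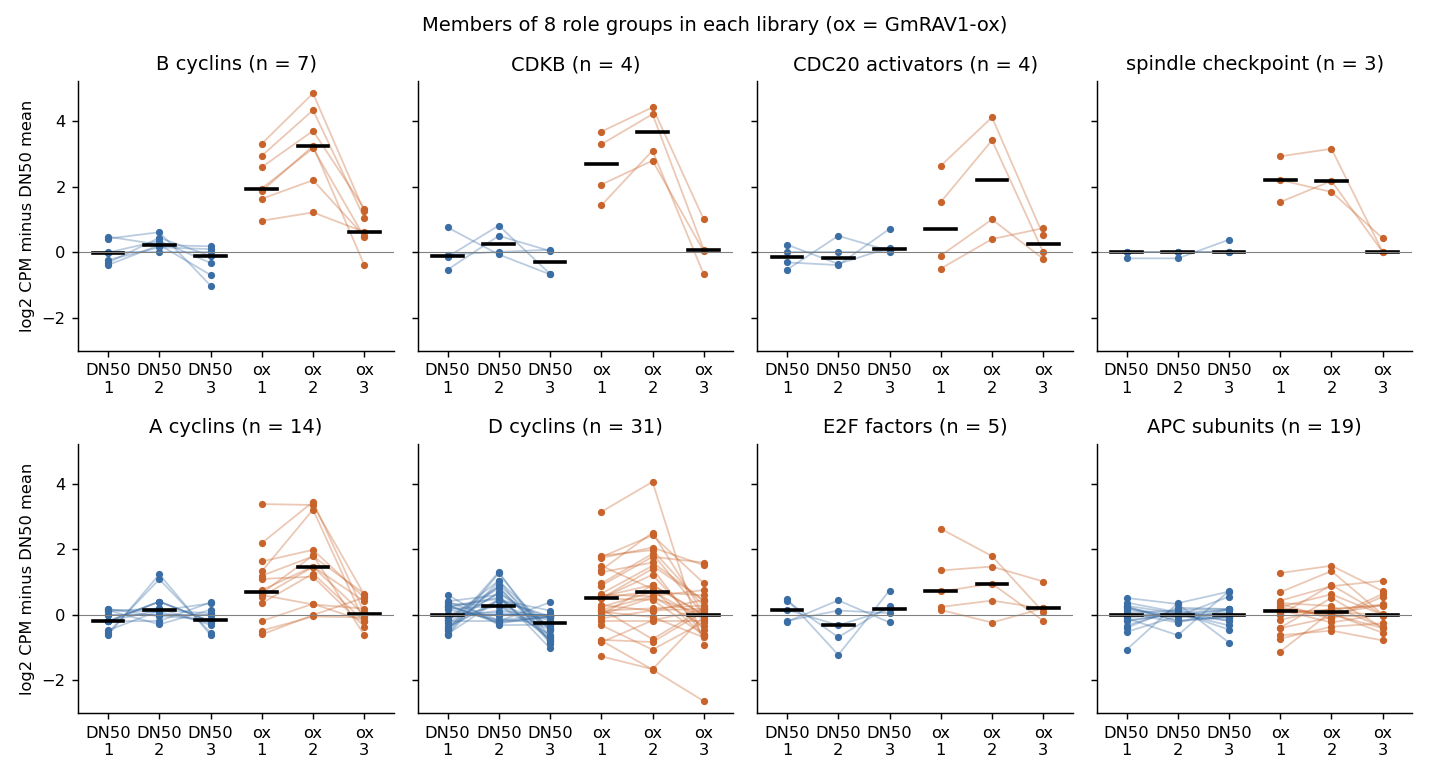
Each point is 1 member in 1 library, on the y axis as log2 CPM (prior count 2) minus that member's DN50 mean, in 8 panels by role; lines join the values of 1 member within a group, with no order meant between replicates, and black bars are medians. All 7 B cyclins are highest in GmRAV1-ox replicate 2, while in GmRAV1-ox replicate 3 their median is 0.62, and for the subunits of the anaphase-promoting complex the medians in GmRAV1-ox are 0.12, 0.10 and 0.

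B cyclins bind CDKs at the entry to mitosis, and 7 members carried this description together with the KEGG label cyclin B. Their summed level was 3.54, 4.55 and 2.24 CPM in the DN50 libraries and 26, 65.8 and 7.36 CPM in the GmRAV1-ox libraries. GmRAV1-ox replicate 2 was the highest library for all 7, and the summed level of GmRAV1-ox replicate 3 lay above each DN50 library. The S13-6 type cyclin Glyma19g30720.1 read 0.308, 0.711 and 0.396 CPM in DN50 and 6.93, 20.6 and 1.5 CPM in GmRAV1-ox. Its groups did not overlap, and its log2 fold change of 4.32 was the highest among tested members (95% interval of the fold 3.53 to 113, edgeR adjusted p = 0.111). Glyma03g27910.1, which the RefSeq gene table names CYCB1;1, read 1.39, 1.85 and 1.06 CPM in DN50 and 6.16, 14.9 and 1.96 CPM in GmRAV1-ox. The lowest GmRAV1-ox library lay just above the highest DN50 library, and the log2 fold change was 2.42 ± 0.71 (standard error, edgeR adjusted p = 0.135). Glyma11g08960.1 read 1.23, 0.996 and 0.396 CPM in DN50 and 6.23, 13.9 and 2.45 CPM in GmRAV1-ox, a log2 fold change of 3.11 ± 0.71, again with no overlap.

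These 3 were the only B cyclins to be tested, and 2 of them, Glyma19g30720.1 and Glyma11g08960.1, reached the CPM cutoff of the filter in GmRAV1-ox libraries only, so that their passing the filter already required a difference. Without GmRAV1-ox replicate 3 their log2 fold changes were 4.80, 3.51 and, for CYCB1;1, 2.85, all 3 called by edgeR (adjusted p = 0.00326, 0.00366 and 0.00487). Among the 4 untested B cyclins, Glyma01g36430.1 read 0.462, 0.569 and 0 CPM in DN50 and 4.03, 10.9 and 0.866 CPM in GmRAV1-ox. The B2-3-like gene Glyma04g00230.1 followed with 0, 0.142 and 0.132 CPM and 1.08, 3.11 and 0 CPM, so that it was not detected in GmRAV1-ox replicate 3. The B3-1-like gene Glyma08g25470.1 and the S13-7-like gene Glyma19g30730.1 had low counts in all libraries, with no overlap between the groups.

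The gene described as cyclin-B1-2-like, Glyma12g02180.1, behaved unlike the other B cyclins and was set apart, since its KEGG label is proteasome maturation protein and its coding length is 435 bases. It read 16, 16.2 and 12.8 CPM in DN50 and 14.2, 14.6 and 16 CPM in GmRAV1-ox. The groups overlapped. Per coding length it stood at 37.2 ± 3.36 FPKM in DN50, above the 8.01 ± 8.54 FPKM that Glyma19g30720.1 reached in GmRAV1-ox (mean ± SD, n = 3). Kept in the group, it would have moved the median log2 fold change of the tested B cyclins from 3.11 to 2.77.

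CDKB kinases are specific to plants and are known to be made mainly from S phase to mitosis. All 4 CDKB members were below the count filter. Their summed level was 1.69, 2.28 and 1.32 CPM in DN50 and 17.4, 32.5 and 2.17 CPM in GmRAV1-ox, so that GmRAV1-ox replicate 3 lay within the DN50 range. The B2-2-like gene Glyma14g39760.1 read 0.308, 0.854 and 0.132 CPM in DN50 and 7.93, 13.5 and 1.01 CPM in GmRAV1-ox, and was the only CDKB gene whose groups did not overlap. The CDKB described as a cell division control protein 2 homolog C, Glyma07g02400.1, read 0.924, 0.996 and 1.06 CPM and 5.0, 8.49 and 1.01 CPM. The B2-2-like gene Glyma09g08250.1 read 0, 0.285 and 0.132 CPM and 3.59, 7.02 and 0.144 CPM. In both, GmRAV1-ox replicates 1 and 2 stood above all other libraries and replicate 3 did not. With no count filter, the fitted folds of these 3 were 16.6, 4.74 and 22.5 (edgeR adjusted p = 0.14, 0.148 and 0.158). Without GmRAV1-ox replicate 3 the same 3 genes could be tested, but only because they were high in GmRAV1-ox, as none reached the CPM cutoff in a DN50 library, so their calls by edgeR are given as a description, with adjusted p = 0.00216, 0.00382 and 0.00345.

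CDC20 activates the anaphase-promoting complex in mitosis, and its 4 members separated into genes near 0 in DN50 and genes present in every library. Glyma01g43980.1 read 0, 0.285 and 0.132 CPM in DN50 and 2.18, 6.56 and 0.289 CPM in GmRAV1-ox. Glyma11g01450.1 held no count in DN50 and read 0.511, 2.65 and 0 CPM in GmRAV1-ox. Pooled over the GmRAV1-ox group, its level was 7.96 times a floor of 3 counts over the DN50 group. That ratio, here and for the genes below, leaves out the spread between libraries and is no lower bound of the fold. The other two, Glyma03g36300.1 and Glyma08g24480.1, were tested and overlapped between the groups. Glyma03g36300.1 read 1.85, 1.14 and 1.71 CPM in DN50 and 1.41, 3.35 and 1.3 CPM in GmRAV1-ox, with GmRAV1-ox replicate 2 the highest library.

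The spindle checkpoint delays anaphase until chromosomes are attached, and its 3 members (genes for MAD2-like proteins and a BUBR1-like protein) were almost absent from DN50. The MAD2-like gene Glyma11g37380.1 held no count in DN50 and read 1.8, 2.15 and 0 CPM in GmRAV1-ox, when pooled 9.75 times the floor of 3 counts over DN50. The BUBR1-like gene Glyma20g00930.1 likewise held none in DN50 and read 0.513, 0.957 and 0 CPM in GmRAV1-ox, when pooled 3.66 times that floor. Both were also at 0 in GmRAV1-ox replicate 3. The other MAD2-like gene, Glyma18g01350.1, read 0, 0 and 0.132 CPM in DN50 and 1.15, 0.837 and 0.144 CPM in GmRAV1-ox. With no count filter, the smallest edgeR adjusted p among the 3 members was 0.19.

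Aurora kinases, which act on chromosomes and the spindle, differed less. The aurora-1 gene Glyma04g09210.1 read 2.16, 2.13 and 3.83 CPM in DN50 and 4.49, 7.01 and 2.6 CPM in GmRAV1-ox, a log2 fold change of 0.80 ± 0.44 with overlapping groups (edgeR adjusted p = 0.321). The aurora-3 gene Glyma13g20180.1, at 4.46, 5.41 and 6.46 CPM and 5.0, 6.82 and 4.48 CPM, showed no separation of the groups. WEE1, a kinase that inhibits CDKs, was untested at 0.462, 0.285 and 0.923 CPM in DN50 and 1.41, 2.51 and 0.433 CPM in GmRAV1-ox, and GmRAV1-ox replicates 1 and 2 were again the highest.

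**Figure D2:**
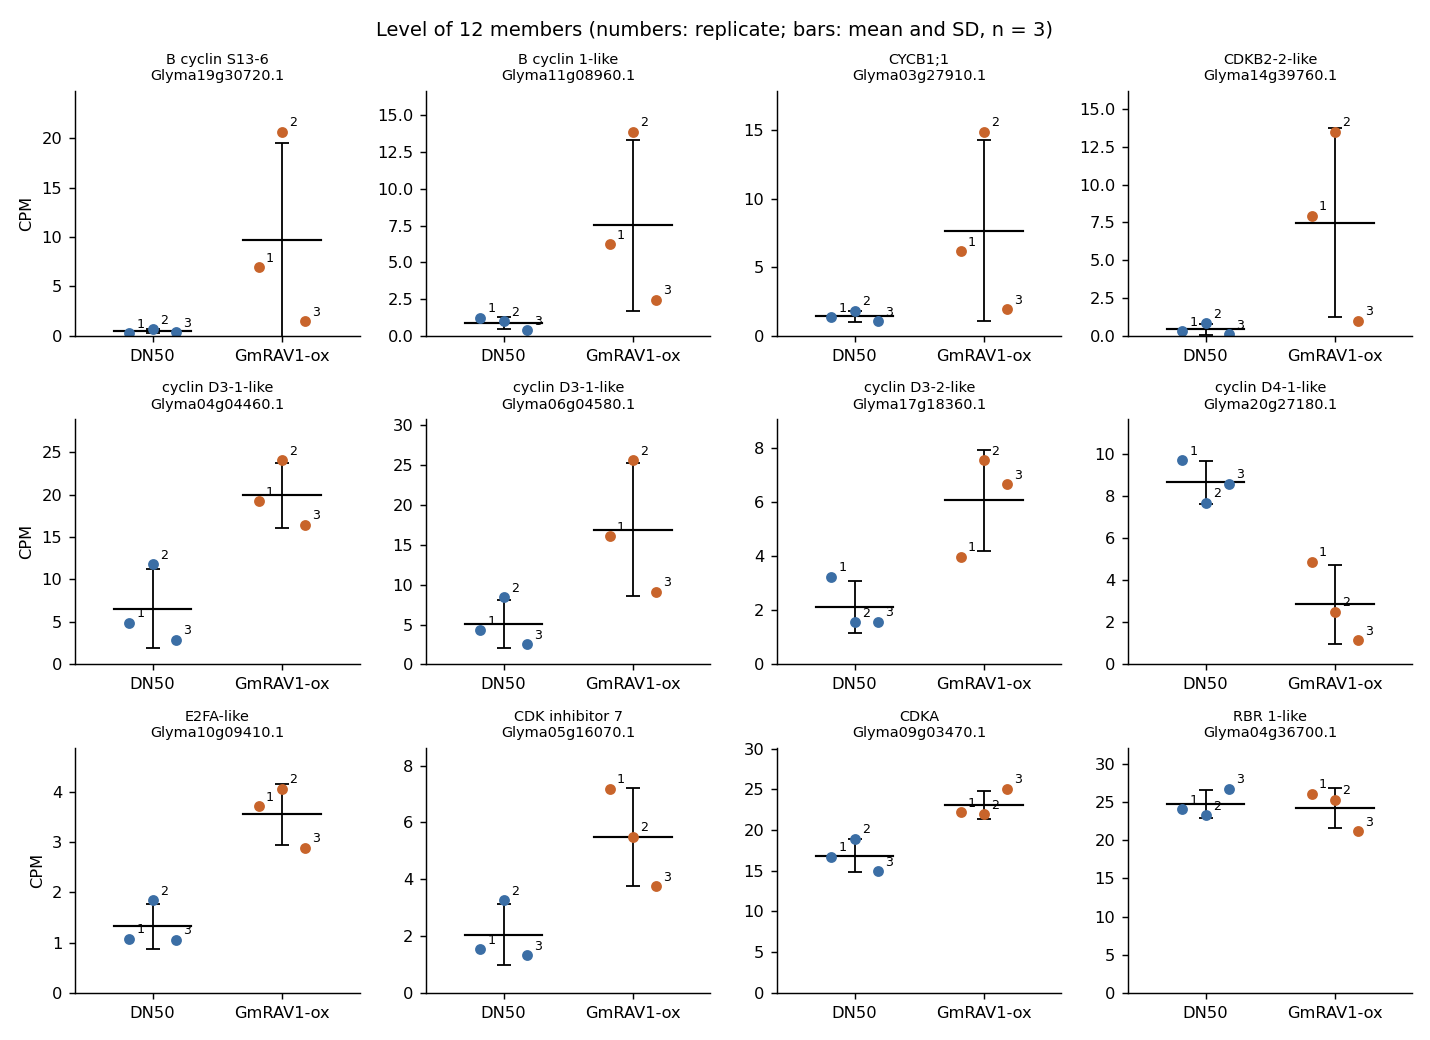
CPM of 12 members in each library on linear axes from 0, with the replicate number beside each point and the group mean and SD (n = 3) as bars; the lower end of the SD bar of Glyma19g30720.1 in GmRAV1-ox is cut at 0. In the top row GmRAV1-ox replicate 3 lies close to DN50, while for both D3-1-like genes it lies above every DN50 library, and the retinoblastoma-related gene overlaps between the groups.

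A cyclins act from S phase to mitosis, and 14 members were described as such. Their summed level was 24.5, 30.6 and 30.7 CPM in DN50 and 44.3, 53 and 32.5 CPM in GmRAV1-ox, and all GmRAV1-ox libraries lay above all DN50 libraries. The A1-1-like gene Glyma14g24480.1 held no count in DN50 and read 2.57, 2.51 and 0.144 CPM in GmRAV1-ox, when pooled 12.8 times the floor of 3 counts over DN50. A second A1-1-like gene, Glyma06g12220.1, read 0, 0.569 and 0 CPM in DN50 and 1.54, 4.07 and 0.144 CPM in GmRAV1-ox. Both were highest in GmRAV1-ox replicates 1 and 2, and close to 0 in replicate 3. Among the 5 tested A cyclins, the A2-4-like gene Glyma08g22200.1 read 1.69, 1.42 and 1.32 CPM in DN50 and 3.72, 5.74 and 2.45 CPM in GmRAV1-ox. Its groups did not overlap, and the log2 fold change was 1.43 ± 0.41 (edgeR adjusted p = 0.124, and 0.0194 without GmRAV1-ox replicate 3). The A2-2-like gene Glyma17g30750.1 had the highest FPKM of the A cyclins and overlapped between the groups, as did the A3-1-like genes Glyma14g09610.1 and Glyma17g35550.1. The 5 other A3-1-like genes were below the count filter, among them Glyma06g04680.1 at 0.616, 0.569 and 0.396 CPM in DN50 and 2.18, 2.87 and 0.866 CPM in GmRAV1-ox.

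D cyclins link growth signals to the start of the cycle, and with 31 members they were the largest role group. Of the 16 tested, 7 were higher and 1 lower at an unadjusted p under 0.05 by edgeR, beside 10.6% and 10.7% of all tested genes. None was called after adjustment by edgeR, while DESeq2 called 3 higher and 1 lower, beside 2.53% and 3.97% of all tested genes. The D3-1-like gene Glyma04g04460.1 read 4.93, 11.8 and 2.9 CPM in DN50 and 19.2, 24 and 16.5 CPM in GmRAV1-ox. All 3 GmRAV1-ox libraries, replicate 3 included, lay above DN50, and the fold had a 95% interval of 1.44 to 6.46 (edgeR adjusted p = 0.133, and 0.0508 without GmRAV1-ox replicate 3). This gene was called by edgeR when DN50 replicate 2, its highest DN50 library, was left out (log2 fold change 2.34, adjusted p = 0.0388, background 0.166% higher and 0.545% lower). Its D3-1-like counterpart Glyma06g04580.1 read 4.31, 8.39 and 2.51 CPM in DN50 and 16, 25.6 and 9.1 CPM in GmRAV1-ox, with a log2 fold change of 1.74 ± 0.51 (edgeR adjusted p = 0.137, and 0.0176 without GmRAV1-ox replicate 3). The order of the libraries within DN50 was the same for both genes, with replicate 2 the highest and replicate 3 the lowest.

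The D3-2-like gene Glyma17g18360.1 read 3.23, 1.56 and 1.58 CPM in DN50 and 3.98, 7.53 and 6.64 CPM in GmRAV1-ox. GmRAV1-ox replicate 3 was here far above DN50 while replicate 1 was near it, and the log2 fold change was 1.51 ± 0.40 (edgeR adjusted p = 0.112, and 0.0506 without GmRAV1-ox replicate 3). Another D3-1-like gene, Glyma10g40990.1, read 0.77, 2.99 and 0.923 CPM in DN50 and 13.9, 26.4 and 0.578 CPM in GmRAV1-ox. GmRAV1-ox replicate 3 was the lowest of all 6 libraries, and the log2 fold change moved from 3.12 (edgeR adjusted p = 0.207) to 3.66 (edgeR adjusted p = 0.00441) without that library. The D1-1-like gene Glyma02g03490.1 read 7.24, 8.68 and 3.56 CPM and 15.4, 19 and 8.37 CPM, with GmRAV1-ox replicate 3 inside the DN50 range (edgeR adjusted p = 0.171, and 0.0209 without that library).

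The lowest estimates among D cyclins belonged to a D4-1-like and a D2-1-like gene. The D4-1-like gene Glyma20g27180.1 read 9.7, 7.68 and 8.57 CPM in DN50 and 4.88, 2.51 and 1.16 CPM in GmRAV1-ox. Its groups did not overlap, GmRAV1-ox replicate 3 was the lowest library, and the log2 fold change was -1.59 ± 0.44 (edgeR adjusted p = 0.12, and 0.0299 without GmRAV1-ox replicate 3). The D2-1-like gene Glyma08g38440.1 read 7.08, 7.68 and 4.49 CPM in DN50 and 2.44, 1.79 and 6.06 CPM in GmRAV1-ox, low in GmRAV1-ox replicates 1 and 2 and within the DN50 range in replicate 3, without which edgeR called it lower (log2 fold change -1.61, adjusted p = 0.018). Per coding length, the D cyclin with the highest mean over the 6 libraries was the D3-3-like gene Glyma11g05590.1, at 19.98 ± 2.47 FPKM in DN50 and 32.4 ± 6.25 FPKM in GmRAV1-ox (mean ± SD, n = 3), with overlapping CPM values. The D5, D6 and D7 types were at or below 1.54 CPM in every library and none was tested.

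Among E2F factors, which activate genes for S phase, the E2FA-like gene Glyma10g09410.1 read 1.08, 1.85 and 1.06 CPM in DN50 and 3.72, 4.07 and 2.89 CPM in GmRAV1-ox. Every GmRAV1-ox library lay above every DN50 library, with a log2 fold change of 1.41 ± 0.37 (edgeR adjusted p = 0.112, and 0.0341 without GmRAV1-ox replicate 3). The other E2FA-like gene, Glyma02g35850.1, had groups that did not overlap either but a smaller difference, at 9.39, 6.69 and 9.5 CPM in DN50 and 10.01, 11.5 and 9.67 CPM in GmRAV1-ox. The E2FB-like gene Glyma11g18400.1, too low to be tested, read 0.616, 0.142 and 0.528 CPM and 3.85, 2.03 and 0.433 CPM, and was high in GmRAV1-ox replicates 1 and 2 only. The 3 retinoblastoma-related genes, which hold E2F factors back, showed no separation. Of these, Glyma04g36700.1 read 24.1, 23.3 and 26.8 CPM in DN50 and 26.1, 25.3 and 21.2 CPM in GmRAV1-ox, and the 95% interval of its fold ran from 0.764 to 1.26.

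CDKA, the kinase active through most of the cycle, was described in 5 members as cell division control protein 2 homolog, of which 3 were tested. Glyma09g03470.1 read 16.7, 18.9 and 14.9 CPM in DN50 and 22.2, 22 and 25.1 CPM in GmRAV1-ox. The groups did not overlap, but the difference was small, with a fold interval of 1.06 to 1.77 (edgeR adjusted p = 0.174), and its counts were fractional in all 6 libraries. Glyma15g14390.1 read 9.14, 28.7 and 12.8 CPM in DN50 and 19.2, 14.4 and 14.5 CPM in GmRAV1-ox, so that the groups overlapped and DN50 replicate 2 was the highest library. The 2 genes for the CDK regulatory subunit, which docks CDKs to substrates, stayed between 3.30 and 6.97 CPM and overlapped between the groups.

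KRP-type inhibitors bind and block cyclin-CDK complexes. The inhibitor 7 gene Glyma05g16070.1 read 1.54, 3.27 and 1.32 CPM in DN50 and 7.19, 5.5 and 3.75 CPM in GmRAV1-ox. All GmRAV1-ox libraries were higher than all DN50 libraries, and the log2 fold change was 1.42 ± 0.43 (edgeR adjusted p = 0.135, and 0.0275 without GmRAV1-ox replicate 3). The other inhibitor 7 gene, Glyma17g20200.1, read 2.62, 3.84 and 2.11 CPM and 6.67, 6.58 and 2.6 CPM, and its GmRAV1-ox replicate 3 lay within the DN50 range (edgeR adjusted p = 0.268, and 0.0356 without that library). The inhibitor 1;1 gene Glyma11g06050.1, the most abundant inhibitor per coding length, was at 41.6 ± 10.8 FPKM in DN50 and 51.4 ± 4.06 FPKM in GmRAV1-ox (mean ± SD, n = 3) and its CPM values overlapped. The 2 genes described as SIM-like, for the family known in Arabidopsis for the switch to endoreduplication, overlapped as well. Of these, Glyma10g34320.1 read 8.0, 7.97 and 10.8 CPM in DN50 and 8.85, 5.98 and 11.4 CPM in GmRAV1-ox.

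The anaphase-promoting complex is a ubiquitin ligase of many subunits, for which 19 members were found and 16 tested. Their summed level was 114, 118 and 121 CPM in DN50 and 129, 128 and 137 CPM in GmRAV1-ox, a ratio of group means of 1.12, beside 9.59 for the B cyclins and 9.85 for CDKB, and each GmRAV1-ox library lay above each DN50 library. The subunit 7 gene Glyma06g10220.1 was the most abundant member of all per coding length, at 55.3 ± 14.6 FPKM in DN50 and 73.6 ± 10.9 FPKM in GmRAV1-ox, with overlapping CPM values. Within the complex, 2 genes had groups apart with GmRAV1-ox above. The subunit 15 gene Glyma04g36170.1 read 2.46, 2.13 and 0.792 CPM in DN50 and 4.36, 5.14 and 2.89 CPM in GmRAV1-ox (edgeR adjusted p = 0.185). The subunit 5 gene Glyma02g45390.1 read 3.47, 3.05 and 2.19 CPM and 3.92, 5.47 and 6.21 CPM (edgeR adjusted p = 0.183). A subunit 8 gene, Glyma01g42530.1, had the groups apart the other way, at 6.09, 6.6 and 5.09 CPM and 3.43, 4.57 and 4.88 CPM, while the subunit 8 gene with the RefSeq symbol ILPA1, Glyma11g02890.1, overlapped.

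**Figure D3:**
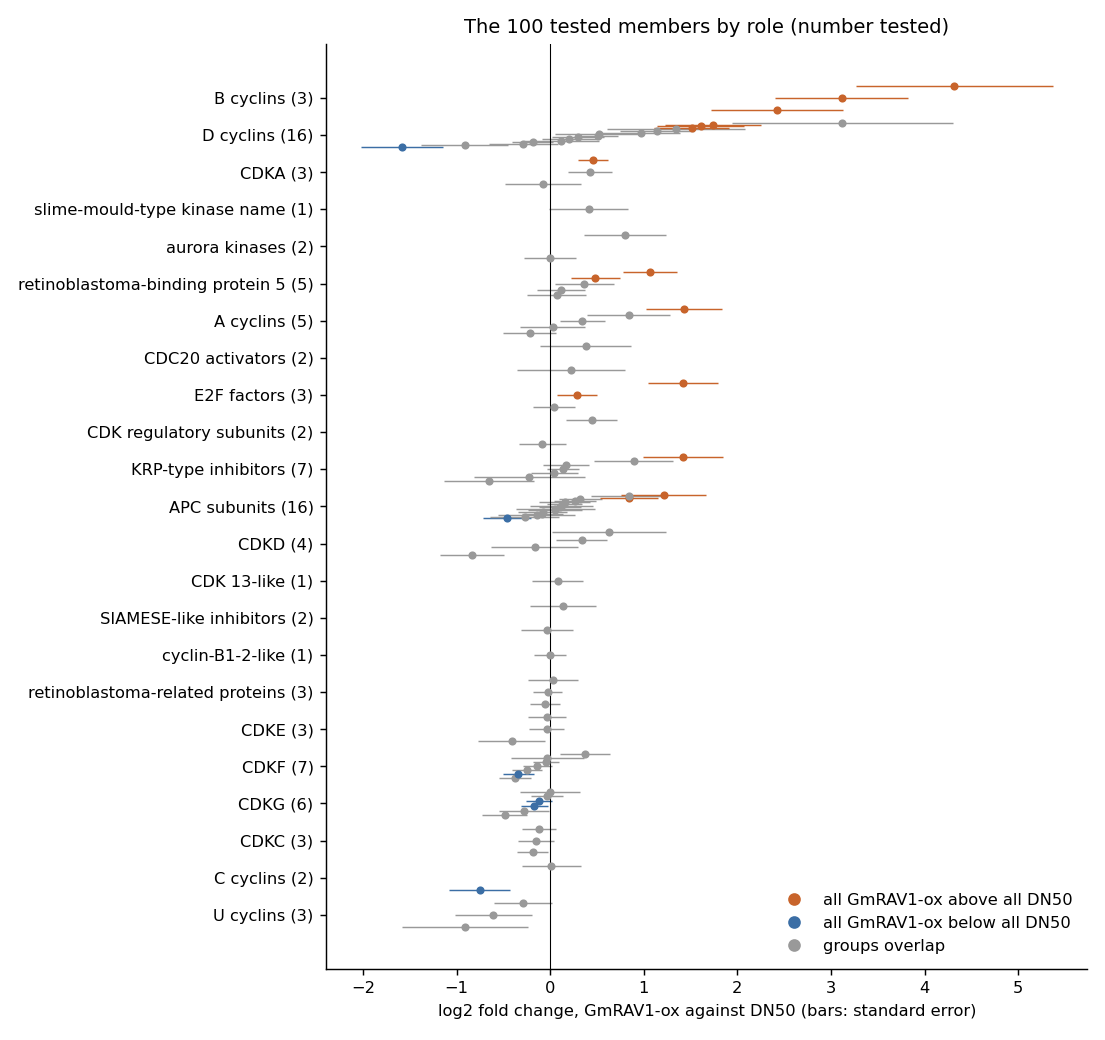
Fitted log2 fold change of each of the 100 tested members (x axis, bars: standard error), in rows by role ordered by their median, with the number tested in brackets; colour shows whether the CPM values of the groups overlap. The 3 tested B cyclins lie between 2.42 and 4.32, and the D cyclins spread from -1.59 to 3.12. At an adjusted p under 0.05 edgeR called none of the points, where DESeq2 called 6 higher and 1 lower (background 2.53% and 3.97% of all tested genes).

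CDKs of the other classes serve transcription, splicing or CDK activation in Arabidopsis more than the division cycle itself. CDKC acts in transcript elongation, CDKD activates other CDKs, and CDKE belongs to the Mediator kinase module. The 25 members in these classes summed to between 467 and 610.1 CPM in a library, and 24 were tested. Of the 24 estimates 4 were above 0, with a median log2 fold change of -0.13. With no scaling factors 16 of 24 were above 0 and the median was 0.06, and that setting moved the median of all tested genes from 0.01 to 0.20. The sign of the class median thus depends on the scaling, while in both settings it lay below the median of all tested genes. The CDKG gene Glyma17g13750.1 read 62, 63 and 78.8 CPM in DN50 and 39.4, 39.6 and 66.4 CPM in GmRAV1-ox. A further CDKG gene, Glyma05g03110.2, read 59.4, 58.5 and 72.7 CPM and 44.1, 38 and 74.9 CPM. In both, GmRAV1-ox replicates 1 and 2 were the lowest libraries, whereas replicate 3 was within the DN50 range for Glyma17g13750.1 and the highest library for Glyma05g03110.2, and without replicate 3 edgeR called both lower (log2 fold change -0.80 and -0.65, adjusted p = 0.0204 and 0.0445). The CDKD gene Glyma05g34150.1 was also lowest in GmRAV1-ox replicates 1 and 2 and within the DN50 range in replicate 3, at 9.36, 7.68 and 10.4 CPM in DN50 and 3.85, 3.53 and 8.07 CPM in GmRAV1-ox (edgeR adjusted p = 0.214, and 0.0122 without GmRAV1-ox replicate 3). The CDKF-4-like gene Glyma01g35190.2, at 45 ± 0.72 FPKM and 43 ± 2.5 FPKM, was the most abundant CDK per coding length, and the 4 genes of this name carry the KEGG label male germ cell-associated kinase.

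C cyclins are partners of the Mediator kinase, and U cyclins are related to phosphate-signalling cyclins of yeast. They made up 2 and 5 members. The C1-2-like gene Glyma18g33140.1 read 6.56, 5.48 and 5.8 CPM in DN50 and 2.22, 3.76 and 4.83 CPM in GmRAV1-ox, with all GmRAV1-ox libraries below DN50 and a log2 fold change of -0.76 ± 0.32 (edgeR adjusted p = 0.228). All 3 tested U cyclins had estimates below 0 and overlapping groups. A further 10 members were matched by wording although their names or KEGG labels point to other proteins, among them the cyclin-B1-2-like gene above. They include 5 genes for retinoblastoma-binding protein 5, whose KEGG label is a subunit of the COMPASS histone methyltransferase. Of these, Glyma04g16100.1 read 2.09, 2.56 and 3.3 CPM in DN50 and 6.28, 5.86 and 4.76 CPM in GmRAV1-ox, with the groups apart (edgeR adjusted p = 0.113, and 0.0347 without GmRAV1-ox replicate 3).

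Over all 155 members, GmRAV1-ox replicate 2 was the highest library for 61 (39.4%). Among the 100 tested members it was so for 25 (25.0%), beside 23.1% of all tested genes. When GmRAV1-ox replicate 3 was left out, 112 members were tested and edgeR called 23 higher and 5 lower, that is 20.5% and 4.46% of them, where 8.62% and 9.66% of all tested genes were called. Of the 23, 13 reached the CPM cutoff of the filter in GmRAV1-ox libraries alone, so that they could be tested only because they were high there. Among the 100 members tested with all 6 libraries, 12 were higher and 5 lower without GmRAV1-ox replicate 3, where 6.84% and 10.1% of all genes tested with 6 libraries were called. The 12 include the B cyclins Glyma19g30720.1 and Glyma11g08960.1, which reached the CPM cutoff in GmRAV1-ox libraries only. The 23 comprised 5 B cyclins, 5 A cyclins, 3 D cyclins, 3 CDKB genes, 2 E2F factors, 2 KRP-type inhibitors, 1 CDC20, 1 MAD2-like gene and 1 retinoblastoma-binding protein 5 gene. The 5 lower members were 2 D cyclins, 2 CDKG genes and 1 CDKD gene. These calls rest on 2 libraries of the GmRAV1-ox group.

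Genes for other steps of the cycle were taken from 4 lists outside the rule, and edgeR called 0 of them with all 6 libraries. The summed level of each list was highest in GmRAV1-ox replicate 2 and next highest in replicate 1. Of 43 replication genes 28 were tested, with 1 higher and 0 lower at an unadjusted p under 0.05 and a median log2 fold change of 0.58; at that p 10.6% of all tested genes were higher and 10.7% lower, and their median was 0.01. The gene like proliferating cell nuclear antigen, Glyma18g07550.1, read 2.0, 3.41 and 2.64 CPM in DN50 and 6.16, 11.7 and 5.05 CPM in GmRAV1-ox, with no overlap. Of 69 chromosome and spindle genes 33 were tested, with 8 higher and 2 lower at that p and a median of 0.21. Of 32 cytokinesis genes 14 were tested, with 2 higher, 0 lower and a median of 0.17. The kinesin gene Glyma02g15340.1, for a protein that orients the phragmoplast, read 0.924, 1.56 and 0.264 CPM in DN50 and 6.42, 12.6 and 2.02 CPM in GmRAV1-ox. Of 19 endocycle genes and cycle regulators 13 were tested, with 4 higher, 0 lower and a median of 0.45. The TSO1-like gene Glyma11g00920.1, for a CXC-domain protein of the type found in the DREAM complex of Arabidopsis, read 7.52, 8.82 and 5.28 CPM in DN50 and 22, 22.2 and 11 CPM in GmRAV1-ox (edgeR adjusted p = 0.0991). By DESeq2 the 4 lists held 1, 2, 2 and 2 genes called higher and 0 lower, beside 2.53% and 3.97% of all tested genes, and limma on log2(FPKM + 0.5) called none in them. Without GmRAV1-ox replicate 3, edgeR tested 34, 47, 24 and 17 of them and called 6, 14, 12 and 8 higher and 0 lower, beside 8.62% higher and 9.66% lower among all tested genes. That fit tested more genes of each list, and it admits genes that reach the CPM cutoff in GmRAV1-ox replicates 1 and 2 alone. How many of these list calls did so was not counted, so they are given as a description.

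Markers of other cell types and of young leaf tissue were read beside these values. The 15 growth-regulating factor genes, known from young, expanding leaf tissue, summed to 22.5, 56.2 and 25.9 CPM in DN50 and 93.5, 98 and 41.9 CPM in GmRAV1-ox. The 7 stomatal lineage genes, whose bHLH factors act in successive steps of that lineage, summed to 11.1, 14.7 and 14.9 CPM and 26.6, 33.1 and 15.7 CPM. Most of that sum came from the 2 FAMA genes, at 10.5, 14.2 and 14.8 CPM in DN50 and 23.4, 25.2 and 14.9 CPM in GmRAV1-ox. Each FAMA gene overlapped between the groups (edgeR adjusted p = 0.174 and 0.314). Of the other stomatal lineage genes, the 3 SPEECHLESS genes were at 0 in all DN50 libraries and summed to 0.898, 0.957 and 0.144 CPM in GmRAV1-ox. The 2 MUTE genes summed to 0.616, 0.427 and 0.132 CPM in DN50 and 2.31, 6.94 and 0.722 CPM in GmRAV1-ox. In each of these sums GmRAV1-ox replicates 1 and 2 were the highest libraries. All 41 meristem and primordium markers together, growth-regulating factors included, overlapped between the groups at 393 to 516 CPM, and the 6 class 1 KNOX genes, which define the shoot meristem, were near 0 in all libraries. Of the 41, 17 were tested, with 4 higher and 1 lower at an unadjusted p under 0.05 by edgeR (10.6% and 10.7% of all tested genes). The WUSCHEL-related homeobox 1-like gene Glyma05g33850.1 read 0.616, 4.41 and 0.528 CPM in DN50 and 26, 26.2 and 2.89 CPM in GmRAV1-ox. Its groups overlapped (edgeR adjusted p = 0.163). Without GmRAV1-ox replicate 3, edgeR tested 20 and called 8 higher and 3 lower, beside 8.62% and 9.66% of all tested genes. The 30 mesophyll markers summed lowest in GmRAV1-ox replicate 2, at 51755 CPM, and lay at 66601 and 87463 CPM in replicates 1 and 3 beside 64707 to 102183 CPM in DN50. Of the 30, 28 had log2 fold changes below 0, with a median of -0.60 beside 0.01 for all tested genes, and 13 were lower in every GmRAV1-ox library than in every DN50 library, beside 13.1% of tested genes. The 2 genes for the small subunit of ribulose bisphosphate carboxylase differed little, with log2 fold changes of -0.02 and 0.004. They summed to 24015.5 to 44313.5 CPM in DN50 and 27609.5 to 45830.6 CPM in GmRAV1-ox, highest in its replicate 3. With all 6 libraries edgeR called none of the 30, with 0 higher and 5 lower at an unadjusted p under 0.05 (10.6% and 10.7% of all tested genes). Without GmRAV1-ox replicate 3 it called 0 of the 30 higher and 5 lower, beside 8.62% and 9.66% of all tested genes. As above, calls without that library are a description. The part of leaf age or cell type makeup in the member differences was not tested, and in bulk leaf RNA fewer cells of a type and less RNA per cell cannot be told apart.

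**Figure D4:**
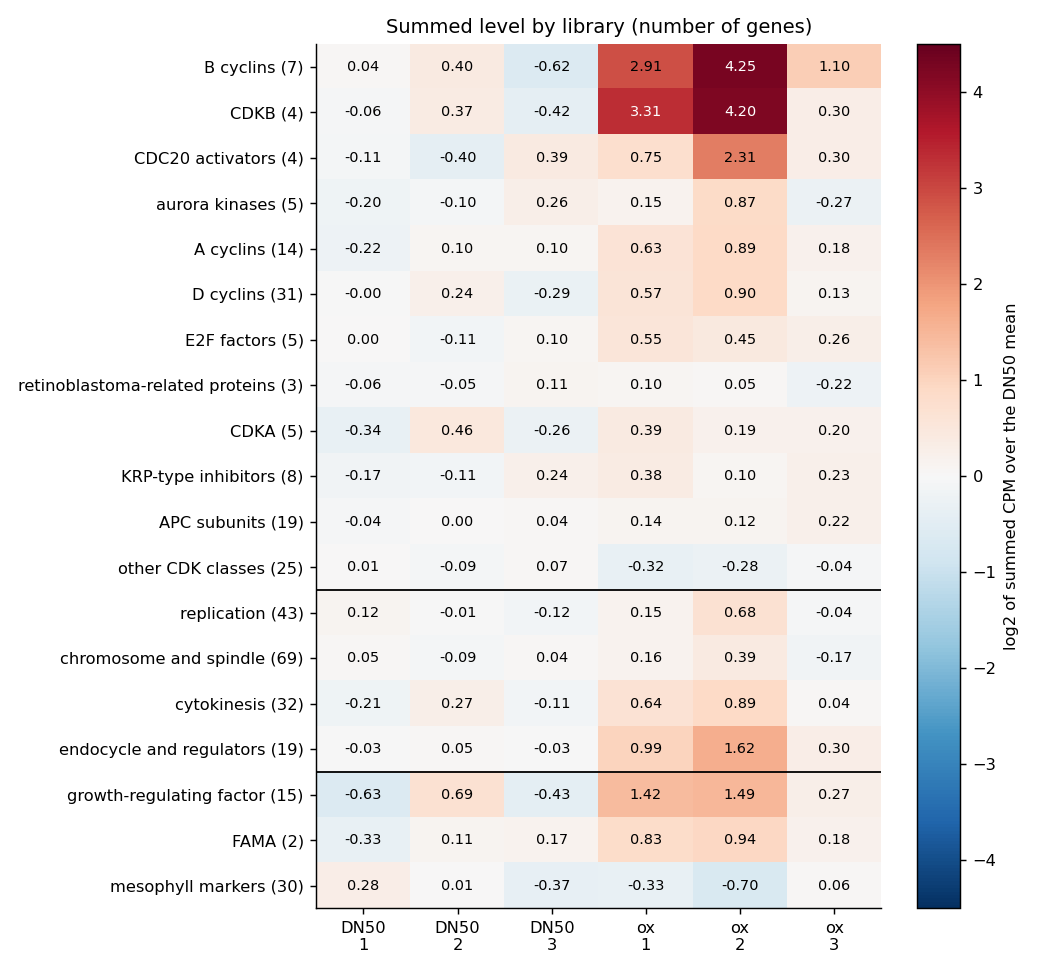
Each cell gives the log2 ratio of a group's summed CPM in 1 library to its DN50 mean, for member roles (top), lists outside the rule (middle) and cell type markers (bottom), with the number of genes in brackets; ox stands for GmRAV1-ox. B cyclins and CDKB stand at 2.91 and 3.31 in GmRAV1-ox replicate 1 and at 4.25 and 4.20 in replicate 2, whereas retinoblastoma-related genes stay between -0.22 and 0.11.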

How the data were processed

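RNA of trifoliolate leaves was sequenced on an Illumina HiSeq from Illumina TruSeq libraries, 3 per group. The expected counts were deposited by the authors for each library, beside FPKM values (fragments scaled to coding length and library total) deposited by the authors in the same tables and in a whole-series table with protein and KEGG descriptions. TopHat and Cufflinks are named in the submitters' processing notes; for versions, genome build and annotation, nothing is given in the sources used here. Every length is a multiple of 3, so lengths are coding lengths. A gene not listed in a library was set to 0. About 30% of expected counts were not whole (29.6% to 30.5% per library, 64 members in at least 1 library), and 20 members share their best protein hit with another member, so counts of close copies are uncertain. The symbols CYCB1;1 and ILPA1 come from the RefSeq gene table, in which the best hits of 136 of 155 members were found.

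Counts were rounded and fitted over all genes with edgeR 4.0.16 in R 4.3.3: filterByExpr (26272 of 36827 genes kept; CPM cutoff 1.36), TMM factors (0.849 to 1.17), and the robust quasi-likelihood F test, which is 2-sided. P-values were adjusted by Benjamini-Hochberg over every tested gene, with calls at an adjusted p under 0.05. CPM values are TMM-scaled. DESeq2 1.42.0 and limma 3.58.1 on log2(FPKM + 0.5) were alternatives, and each tool was run on simulated counts. There limma was given counts scaled with the TMM factors, so its use on FPKM was not simulated. No test was made of a list. The members, the role groups and the other lists were chosen with earlier results of these data known. Genes named by rule were, in each role, the most abundant per coding length and the tested one with the smallest p, and the 10 highest and up to 10 lowest log2 fold changes with groups apart (6 members had groups apart with GmRAV1-ox below); other genes named were chosen after their values were seen, as was the setting apart of the cyclin-B1-2-like gene. No sequence is printed, as none was used here. Library totals (7208496 to 7684540 counts) limit the precision of members near 1 CPM. The cell type and RAV lists were matched by description; the 4 seed genes summed to at most 1.41 CPM in any library.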

Additional observations from a re-analysis of the deposited data

How the results depend on the processing

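Counts of calls moved more than anything else. Over all genes, 32 were higher and 152 lower by edgeR. The higher count was 84 with no scaling factors, 62 with no count filter, 665 by DESeq2, 56 and 64 by limma on log2(FPKM + 0.5) and log2(FPKM + 1), and 9 by unfiltered limma. The lower count was 231 with no count filter, 1042 by DESeq2, 89 by limma on log2(FPKM + 0.1) and 11 by limma with no filter. Leaving out 1 library gave 0 to 2383 higher and 0 to 2672 lower, with the upper ends without GmRAV1-ox replicate 3. For the members the counts of 0 higher and 0 lower became 6 and 1 by DESeq2, and 0 to 23 and 0 to 5 when 1 library was left out. Of those 6 settings only the ones without GmRAV1-ox replicate 3 (23 and 5, or 12 and 5 among the members tested with all 6 libraries, a setting chosen after the data were seen) and without DN50 replicate 2 (1 and 0) called any member. The member median of 0.06 was 0.25 with no scaling factors, 0.25 with no count filter, and 0.0553 to 0.26 when 1 library was left out. By limma it was 0.23 and 0.25 on log2(FPKM + 0.5) and log2(FPKM + 0.1), and 0.33 with no filter. The median of all tested genes, 0.01 by edgeR, was 0.20 with no scaling factors and 0.04 with no count filter. In the same limma settings it was 0.18, 0.19 and 0.18. What moved the member median beyond that of all genes was not tested.

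Replicate numbers are shared by the groups, but the labels do not say that they mark anything common, and same-numbered libraries did not deviate together in all pairs (correlations of -0.30, 0.40 and 0.30). With the replicate number as a block, edgeR called 682 genes higher and 939 lower of 26272 tested, and 6 members higher and 1 lower of 100 tested.

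For a part of the members picked by the naming rule, some of them without an estimate printed here, the alternatives were compared with the main fit. They gave 441 estimates on the same side of 0 and of the threshold, 25 that passed the threshold and 10 of opposite sign. The 10 belong to 2 CDKG genes near 0: Glyma05g27820.1 (0.0671 with no scaling factors, and 0.0596, 0.0611, 0.0578 and 0.0596 by limma with pseudocounts of 0.5, 0.1 and 1 and unfiltered) and Glyma11g37270.1 (0.0178, then 0.0147, 0.0153, 0.0139 and 0.0147), both below 0 by edgeR. At this depth the 55 members below the count filter, among them all CDKB genes, could be tested with all 6 libraries only by dropping that filter, which called 0 of the 155 members (smallest adjusted p = 0.0945, with 32 higher and 3 lower at an unadjusted p under 0.05).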
